A study of Mus musculus with 18 samples.

Results

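The corticotropin-releasing hormone (CRH) and urocortin system was followed through 6 genes, the ligands Crh, Ucn and Ucn3, the receptors Crhr1 and Crhr2, and the binding protein gene Crhbp. They were taken by symbol from the 19938 genes that have a target (probeset) of their own on the array. Each of the 6 genes had 1 such target and no target shared with another gene. RNA from the lateral septum (LS) of 18 outbred hsd:ICR female mice about 70 days old was hybridized to 18 arrays of the Affymetrix Mouse Gene 1.0 ST type, with each mouse on its own array. The 6 virgin mice had not been mated, shared cages with other females while the other groups were with males, and, per the study's methods, were in diestrus. Afterwards the females of every group were housed individually, apart from the litters of the mated groups. The 6 lactating maternal mice had been mated, had litters reduced where needed to 11 pups, and were dissected on postpartum Day 7 with the pups present. The 6 pups removed mice had the same mating and litter size, lost their pups on postpartum Day 2, were dissected on Day 7 and were in diestrus. Virgin mice therefore differed from maternal mice in mating, pregnancy, lactation and pup contact together. The pups removed group was the closer control for the presence of pups, although lactation also differed and no cycle state was used here for maternal mice. Values are log2 signals as the authors deposited them, and a difference of 1 on this scale is a doubling of signal.

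CRH is the hypothalamic peptide that drives the release of adrenocorticotropin from the pituitary, and it also acts as a transmitter in stress and anxiety circuits of the forebrain. CRH binds CRHR1 with high affinity, urocortin (Ucn) binds both receptors, and urocortin 3 (Ucn3) is selective for CRHR2. Both receptors are class B G protein-coupled receptors that raise cyclic AMP, and the secreted CRH binding protein sequesters CRH and urocortin. The LS is known for strong expression of Crhr2, and urocortin 3 fibers reach it from cell bodies in other regions. The mRNA of a ligand measured in a dissection therefore describes local cell bodies and not the peptide delivered by axons.

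None of the 6 genes differed between the groups beyond the spread between mice. Of 18 comparisons, 6 genes in each of 3 pairs of groups, 0 passed the study's threshold of an adjusted p under 0.25 in limma, 0 had an unadjusted limma p under 0.05, and 0 had an exact permutation p under 0.05. The smallest adjusted p in limma was 0.76, the smallest unadjusted p was 0.209 and the smallest exact permutation p was 0.175. All 95% confidence intervals lay between -0.24 and 0.22 on the log2 scale, a fold change of 0.844 to 1.17. Larger changes of signal than these were outside the intervals of every gene. Over all 35557 targets, limma called 1.65% between maternal and virgin LS (0.832% higher and 0.813% lower in maternal mice), 0.0309% between maternal and pups removed LS and 0.208% between pups removed and virgin LS. At an unadjusted p under 0.05 the shares were 10.4%, 8.96% and 8.13% in the same order. Beside these shares a count of 0 among 6 genes says little by itself, and the intervals carry the result.

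**Figure D1:**
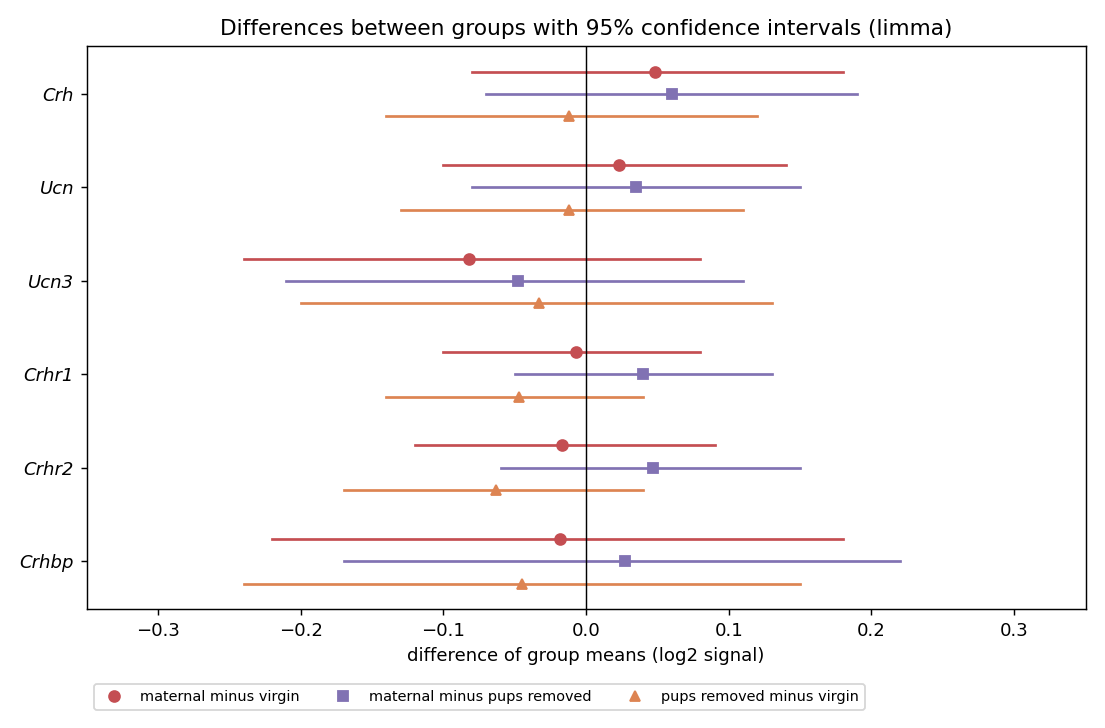
Difference of group means in log2 signal (x axis) for each of the 6 genes (y axis) in the 3 comparisons, with points for the limma estimate and lines for the 95% confidence interval. All 18 intervals include 0, and they reach from -0.24 to 0.22.

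As a yardstick for targets of genes not expected in brain, 1030 targets of olfactory receptor genes had a median mean signal of 5.41, a 95th percentile of 7.01 and a maximum of 9.70. Crh had a mean of 5.66 over the 18 arrays, brighter than 59.3% of the olfactory receptor targets, and Ucn3 had a mean of 6.71, brighter than 90.1% of them. Crh and Ucn3 thus lay below the 95th percentile of such targets, and how much of their signal came from their own transcripts was not tested. Ucn at 7.40, Crhbp at 7.64, Crhr1 at 8.22 and Crhr2 at 9.09 lay above the 95th percentile of that set. Probes of different genes differ in efficiency, so the order of these signals is not an order of mRNA amounts.

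**Figure D2:**
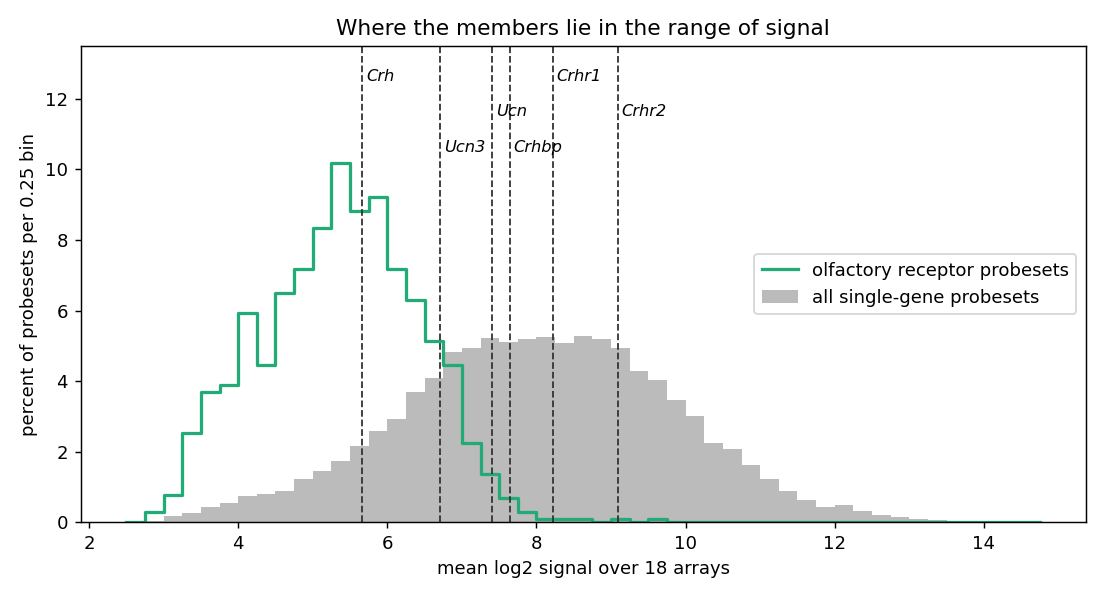
Share of targets (y axis, percent per bin of 0.25) by mean log2 signal over 18 arrays (x axis), with bars for all targets that name 1 gene and a line for the 1030 olfactory receptor targets. Dashed lines mark the 6 genes, from Crh at 5.66 to Crhr2 at 9.09.

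Among the ligands, Crh read 5.72, 5.51, 5.59, 5.65, 5.61 and 5.82 in virgin mice (mean 5.65 ± 0.11, SD, n = 6). It read 5.53, 5.83, 5.66, 5.69, 5.74 and 5.74 in maternal mice (5.70 ± 0.10, n = 6) and 5.56, 5.55, 5.56, 5.83, 5.67 and 5.66 in pups removed mice (5.64 ± 0.11, n = 6). The groups overlapped throughout, and each held 1 mouse at 5.82 or 5.83. The maternal mean was 0.048 above the virgin mean (SE 0.060, 95% confidence interval -0.08 to 0.18, limma adjusted p = 0.829, exact permutation p = 0.439) and 0.060 above the pups removed mean (interval -0.07 to 0.19, limma adjusted p = 0.807). The pups removed mean was 0.012 below the virgin mean, an interval of -0.14 to 0.12. Since Crh lay below the 95th percentile of the olfactory receptor targets, these intervals bound the array signal more than the Crh transcript. The maternal difference from virgin also turned to -0.008 when the arrays were quantile normalized.

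Ucn, the gene of the ligand of both receptors, read 7.35, 7.54, 7.34, 7.23, 7.40 and 7.53 in virgin mice (7.40 ± 0.12, n = 6). Maternal mice read 7.33, 7.39, 7.48, 7.47, 7.44 and 7.42 (7.42 ± 0.06, n = 6), and pups removed mice read 7.37, 7.24, 7.45, 7.46, 7.52 and 7.28 (7.39 ± 0.11, n = 6). All 6 maternal values lay within the virgin range of 7.23 to 7.54. The maternal mean was 0.023 above the virgin mean (SE 0.057, interval -0.10 to 0.14, limma adjusted p = 0.922, exact permutation p = 0.697) and 0.035 above the pups removed mean (interval -0.08 to 0.15, limma adjusted p = 0.887). Pups removed mice were 0.012 below virgin mice (interval -0.13 to 0.11).

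Ucn3, the gene of the CRHR2-selective ligand, read 6.70, 6.77, 6.72, 6.77, 6.70 and 6.85 in virgin mice (6.75 ± 0.06, n = 6). Maternal mice read 6.68, 6.77, 6.67, 6.69, 6.41 and 6.80 (6.67 ± 0.14, n = 6), and pups removed mice read 6.71, 6.67, 6.69, 6.79, 7.02 and 6.43 (6.72 ± 0.19, n = 6). Most mice of all groups lay between 6.67 and 6.85, and the wider spread of the postpartum groups came from 3 mice, maternal replicate 5 at 6.41 and pups removed replicates 5 and 6 at 7.02 and 6.43. The difference in spread was not tested. The maternal mean was 0.082 below the virgin mean, the largest difference among the 18 (SE 0.078, interval -0.24 to 0.08, limma adjusted p = 0.76, exact permutation p = 0.219). Its size exceeded that of 75.8% of the single-gene targets in that comparison, and without maternal replicate 5 it was -0.03. The maternal mean was 0.048 below the pups removed mean (interval -0.21 to 0.11), and the pups removed mean was 0.033 below the virgin mean (interval -0.20 to 0.13).

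The receptors gave the narrowest intervals. Crhr1, which couples CRH to cyclic AMP, read 8.27, 8.28, 8.28, 8.19, 8.18 and 8.21 in virgin mice (8.23 ± 0.05, n = 6). Maternal mice read 8.14, 8.21, 8.20, 8.35, 8.29 and 8.18 (8.23 ± 0.08, n = 6), and pups removed mice read 8.17, 8.18, 8.07, 8.28, 8.26 and 8.17 (8.19 ± 0.08, n = 6). The virgin and maternal means were 0.007 apart, with the maternal mean lower (SE 0.042, interval -0.10 to 0.08, limma adjusted p = 0.972, exact permutation p = 0.924). Its size exceeded that of 7.18% of the single-gene targets in that comparison. Maternal mice were 0.040 above pups removed mice (interval -0.05 to 0.13), and pups removed mice were 0.047 below virgin mice (interval -0.14 to 0.04, limma adjusted p = 0.83).

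Crhr2, the receptor of the urocortins for which the LS is known, read 9.14, 9.23, 9.05, 9.09, 9.14 and 9.03 in virgin mice (9.11 ± 0.07, n = 6). Maternal mice read 9.06, 9.09, 9.13, 9.26, 9.07 and 8.97 (9.10 ± 0.10, n = 6), and pups removed mice read 9.11, 9.06, 9.16, 8.98, 9.02 and 8.97 (9.05 ± 0.07, n = 6). The groups overlapped, although 5 of 6 pups removed mice lay below the virgin mean. That difference was -0.063 (SE 0.049, interval -0.17 to 0.04, limma p = 0.209, adjusted p = 0.792, exact permutation p = 0.175), the smallest p among the 18 comparisons. The maternal mean was 0.017 below the virgin mean (interval -0.12 to 0.09, limma adjusted p = 0.936) and 0.047 above the pups removed mean (interval -0.06 to 0.15, limma adjusted p = 0.814).

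Crhbp, the gene of the secreted binding protein, read 7.55, 7.67, 7.67, 7.49, 7.65 and 7.94 in virgin mice (7.66 ± 0.15, n = 6). Maternal mice read 7.55, 7.63, 7.32, 7.70, 7.82 and 7.84 (7.64 ± 0.19, n = 6), and pups removed mice read 7.43, 7.59, 7.59, 7.76, 7.47 and 7.86 (7.62 ± 0.17, n = 6). It varied most between mice of 1 group, with a within-group SD of 0.172 against a median of 0.0947 for the 1000 targets nearest in signal. The same SDs were 0.14 and 0.111 for Ucn3, 0.0818 and 0.0774 for Crhr2, 0.0991 and 0.0993 for Ucn, 0.106 and 0.123 for Crh, and 0.0679 and 0.0875 for Crhr1. The maternal mean of Crhbp was 0.018 below the virgin mean (SE 0.094, interval -0.22 to 0.18, limma adjusted p = 0.965, exact permutation p = 0.87) and 0.027 above the pups removed mean (interval -0.17 to 0.22). Pups removed mice were 0.045 below virgin mice (interval -0.24 to 0.15).

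**Figure D3:**
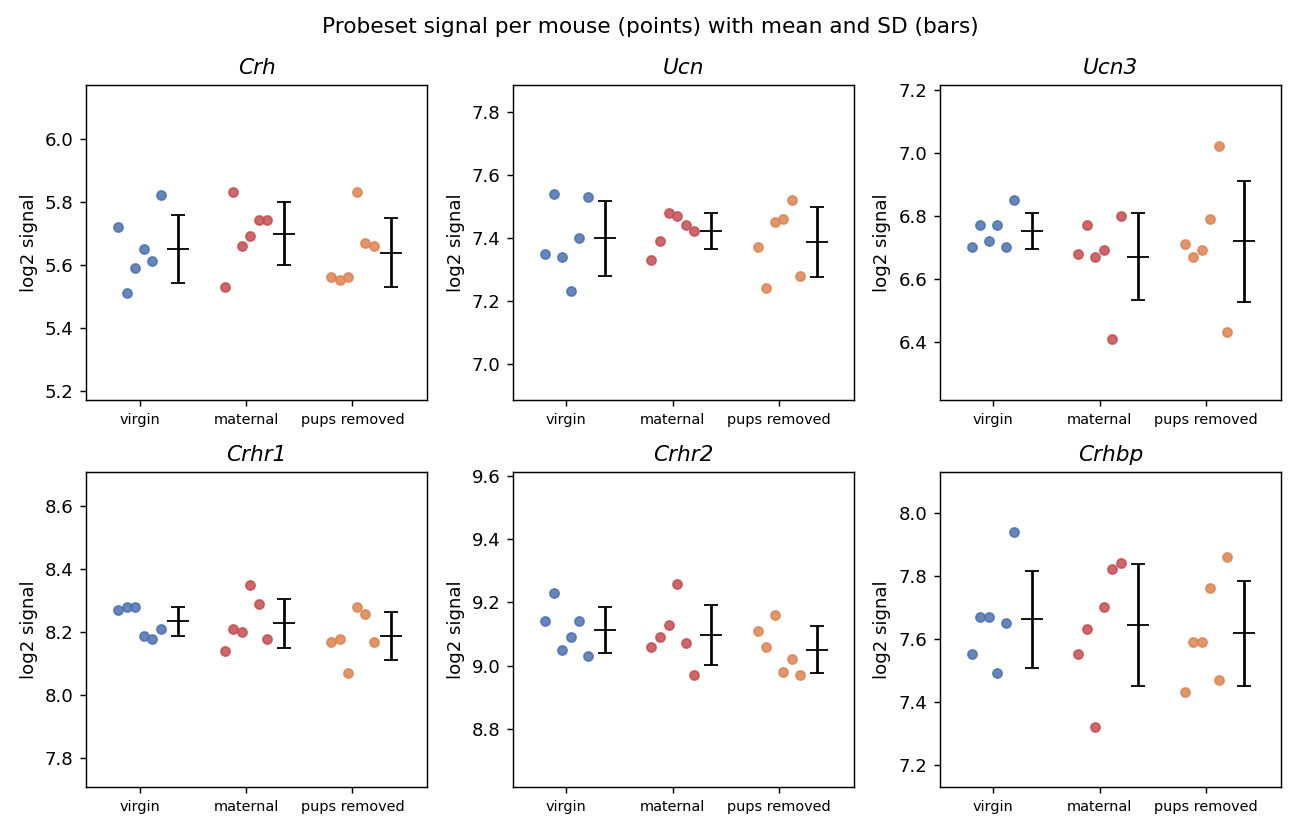
Log2 signal (y axis, 1 unit in each panel) of the 6 genes in virgin, maternal and pups removed mice (x axis), with 1 point per mouse and bars for the mean and SD. The groups overlap for every gene, and the spread is narrow for Crhr1 (SD 0.05 to 0.08) and wide for Crhbp (SD 0.15 to 0.19).

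By direction alone, 2 of the 6 genes were higher and 4 lower in maternal than in virgin mice. The median difference was -0.012, against 0.012 over all targets and 0.000 over the single-gene targets. In maternal against pups removed mice 5 were higher and 1 lower (median 0.038 against -0.003 over all and -0.007 over single-gene targets). In pups removed against virgin mice 6 of 6 were lower (median -0.039 against 0.012 over all and 0.005 over single-gene targets). These comparisons share arrays, and no single difference passed the test.

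The fourth ligand, urocortin 2, is not among the 6 genes. Its target read between 6.88 and 7.06 in virgin mice, between 6.95 and 7.25 in maternal mice and between 6.86 and 7.05 in pups removed mice, and the groups overlapped. Ucn2 was 0.088 higher in maternal than in virgin mice (SE 0.052, interval -0.02 to 0.20, limma p = 0.106, adjusted p = 0.573, exact permutation p = 0.128), with the highest value in maternal replicate 4. Over all arrays its signal lay at the 95th percentile of the olfactory receptor targets.

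The cyclic AMP response element (CRE) is the DNA motif through which cyclic AMP signaling reaches promoters, and it is shown here because the 2 receptors raise cyclic AMP. RefSeq promoter sequences (build GRCm38.p6, 250 bases before to 50 after the gene start) were at hand for 5 of the 6 genes, without Crh. On either strand, the palindrome TGACGTCA stood in 588 of 32851 promoters (1.79%) and its shorter core TGACG, which it contains, in 6837 (20.8%). The TATA motif TATAA, searched on the gene's strand only, stood in 5763 (17.5%). Among the 5 genes only Ucn held the palindrome, at -44 to -37, and the stretch from -54 to -6 (chr5:31138901-31138949, minus strand) is printed with both motifs in capitals:
Ucn: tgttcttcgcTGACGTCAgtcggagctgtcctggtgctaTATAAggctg
Apart from Ucn, the core stood in the Crhbp promoter at -64, and TATAA stood in the promoters of Crhr2 at -39 and of Crhbp at -243, -234 and 31. No motif of the 3 stood in the windows of Crhr1 and Ucn3. These matches describe the sequence, and their part in the signal of any of these genes was not tested.

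The members were then set beside the rest of the pathway, in lists chosen for function. Of 23 measured genes of CRH receptor signaling (of 28 listed), 1 was called between maternal and virgin LS and 22 were not, where 1.65% of all targets were called. The median difference was 0.003, against 0.012 over all targets and 0.000 over the single-gene targets. A count of 1 in 23 is near that share. Adcy5, a cyclase that makes cyclic AMP, was the called gene. It fell by 0.30 (SE 0.08, limma adjusted p = 0.212), from 10.88 ± 0.10 in virgin to 10.57 ± 0.13 in maternal mice, and it was 0.22 lower in maternal than in pups removed mice, where the adjusted limma p was 0.471. Its call was lost without virgin replicate 2 (-0.311), 3 (-0.283), 4 (-0.295) or 5 (-0.277). The same held without maternal replicate 2 (-0.283), 4 (-0.263), 5 (-0.295) or 6 (-0.309). In these fits the Adcy5 difference kept its size. The adjusted p depends on all targets, and their calls in this comparison ran from 10 to 1639 when 1 array was left out. Adcy5 is also the main cyclase of striatal neurons, and striatal markers were lower in maternal mice too, with the values given among the markers.

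Of 13 other class B peptide receptors, all measured, 1 was called between maternal and virgin LS, again beside 1.65% of all targets, and the median difference was -0.008. Pth2r, a receptor of the parathyroid hormone family whose ligand in brain is TIP39, rose by 0.29 (SE 0.07, limma adjusted p = 0.176), from 6.68 ± 0.09 to 6.97 ± 0.10, both under the 7.01 that marks the 95th percentile of olfactory receptor targets. The call was lost without virgin replicate 2 (0.283) or 3 (0.265) and without maternal replicate 2 (0.280), 4 (0.278), 5 (0.292) or 6 (0.254). In maternal against pups removed mice the Pth2r difference was 0.19 (limma adjusted p = 0.466). There, 4 of the 13 receptors had an unadjusted limma p under 0.05, beside 8.96% of all targets, and 0 were called. Besides Pth2r they were Glp1r (-0.31, mean signal 10.50), Glp2r (0.17) and Calcrl (-0.11), so they did not share a direction.

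In the other lists of the pathway nothing was called. The 7 genes of the fourth ligand and the pituitary and adrenal partners had a median difference of 0.010, and the adrenocorticotropin receptor gene Mc2r had the smallest p with a difference of 0.13 (SE 0.06, limma adjusted p = 0.494). Of 9 genes of neuropeptide processing 8 were measured, with a median of -0.010, and Pcsk1n, which encodes a prohormone convertase inhibitor, had the smallest p with a difference of 0.11 (SE 0.08, limma adjusted p = 0.663). In pups removed mice against maternal and against virgin mice, 0 genes of any list were called. The called shares of all targets were 0.0309% and 0.208%.

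**Figure D4:**
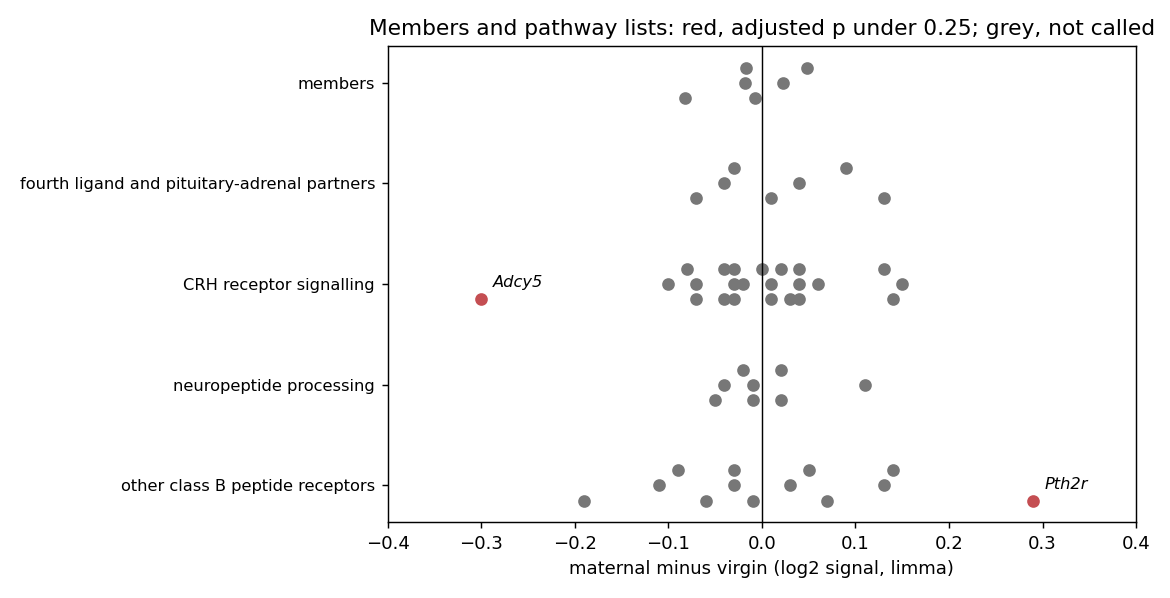
Maternal minus virgin difference in log2 signal (x axis) of the 6 genes and of the measured genes of 4 pathway lists (rows), 1 point per gene, red where the limma adjusted p was under 0.25. Adcy5 at -0.30 and Pth2r at 0.29 are the called genes, and the 6 genes lie between -0.082 and 0.048.

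Markers of the dissected and neighboring tissues were read on the same arrays. The LS markers Sst, Zic1, Zic2, Trpc4, Zic4 and Nts averaged 12.41, 12.02, 11.89, 11.19, 9.14 and 8.80. Their mean lay between 10.85 and 10.95 in virgin, between 10.91 and 10.98 in maternal and between 10.74 and 11.05 in pups removed mice. Of these 6 markers 0 were called between maternal and virgin mice, beside 1.65% of all targets. An unadjusted limma p under 0.05 was found for 3 of them, beside 10.4% of all targets. The 3 differences were 0.17 for Trpc4, 0.14 for Zic4 and -0.12 for Sst, so the markers did not share a direction. All 10 measured markers of medium spiny neurons, the projection neurons of the striatum, had negative differences between maternal and virgin mice (median -0.555). Their mean was 10.52 ± 0.10 (10.38 to 10.62) in virgin and 10.03 ± 0.25 (9.57 to 10.23) in maternal mice, with 10.37 ± 0.40 in pups removed mice. Bcl11b (-0.31, limma adjusted p = 0.128) and Rarb (-0.60, limma adjusted p = 0.212) were called, beside 1.65% of all targets. All 10 had an unadjusted limma p under 0.05, beside 10.4% of all targets. The call of Bcl11b was lost without virgin replicate 2 (-0.312) or maternal replicate 4 (-0.274) or 5 (-0.320). That of Rarb was lost without virgin replicate 2 (-0.620), 3 (-0.574), 4 (-0.586) or 5 (-0.578) or maternal replicate 2 (-0.634), 4 (-0.470), 5 (-0.592) or 6 (-0.634). In tissue RNA, fewer cells of a type and less RNA per cell cannot be told apart, and the part of these markers in the Adcy5 value was not tested. Of 8 choroid plexus markers 8 were lower in maternal than in virgin mice, with 0 called, beside 1.65% of all targets. Their mean varied widely within groups, from 7.71 to 10.01 in virgin, 7.76 to 9.49 in maternal and 7.59 to 9.94 in pups removed mice.

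How the 6 genes varied between mice was set against the marker lists and against each other. Over the 18 arrays, 11 of the 15 pairs of the 6 genes had a positive correlation and 4 a negative one, and 0 passed a Benjamini-Hochberg adjusted p of 0.05 (permutation test). The largest was between Crh and Crhbp (r = 0.46, permutation p = 0.059, adjusted p = 0.44; Spearman rho = 0.43, permutation p = 0.077, adjusted p = 0.38). It was 0.46, 0.43 and 0.53 within virgin, maternal and pups removed mice, and 0.48 without the 2 arrays farthest in Crh.

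Of the 48 relations between the 6 genes and the means of 8 marker lists, which were computed after the values of the genes had been seen, 3 had an adjusted permutation p under 0.05 by Pearson r and 1 by Spearman rho. All 3 involved Crh. Crh was lower in mice with more choroid plexus signal (r = -0.74, permutation p = 0.00078, adjusted p = 0.019; rho = -0.74, permutation p = 0.00073, adjusted p = 0.035), and r was -0.89 without the 2 arrays farthest in that signal. Within virgin, maternal and pups removed mice r was -0.96, -0.88 and -0.48. The 2 arrays left out were the pups removed mice with the least choroid plexus signal, replicates 3 and 4 at 7.66 and 7.59. They read 5.56 and 5.83 for Crh, so replicate 3, low in both, went against the relation and was absent from the r of -0.89. The part of choroid plexus RNA in the Crh signal was not tested. The olfactory receptor targets, which share the low signal range of Crh, had r of -0.19 with the choroid plexus list in the median, and 5% of them lay below -0.54. Crh was also lower with more astrocyte signal (r = -0.71, permutation p = 0.00052, adjusted p = 0.019; rho = -0.60, adjusted p = 0.16; -0.52 without the 2 farthest arrays), a list with which the olfactory receptor targets had r of -0.20 in the median and -0.54 at the 5th percentile. It was higher with more signal of medial septal cholinergic markers (r = 0.66, permutation p = 0.0024, adjusted p = 0.038; rho = 0.65, adjusted p = 0.11; 0.52 without the 2 farthest arrays), where the olfactory receptor targets had r of 0.12 in the median and 0.50 at the 95th percentile. The 3 relations are not independent, as the lists varied together in part. Pups removed replicates 4 and 2 had the highest and lowest cholinergic means (8.60 and 8.08), with choroid plexus means of 7.59 and 9.94. Maternal replicate 2 and virgin replicate 6, lowest in astrocyte signal (9.87 and 9.92), had choroid plexus means of 7.82 and 7.71. Pups removed replicates 3 and 4, lowest in choroid plexus signal, read 10.08 for astrocytes. How the lists relate was not tested.

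Another 5 relations had a permutation p under 0.05 and did not pass the adjustment. Crhbp was higher with more signal of cortical and hippocampal glutamatergic markers (r = 0.60, permutation p = 0.0093, adjusted p = 0.11; rho = 0.51, adjusted p = 0.19), within groups at 0.76, 0.63 and 0.43, and r was 0.39 without the 2 farthest arrays. Crhr2 was higher with more signal of the LS markers (r = 0.54, permutation p = 0.021, adjusted p = 0.17; rho = 0.52, adjusted p = 0.19), within groups at 0.58, 0.25 and 0.75, and r was 0.39 without the 2 farthest arrays. Both relations thus rested in part on those arrays. Crhr2 was lower with more glutamatergic signal (r = -0.49, permutation p = 0.039, adjusted p = 0.24; rho = -0.51, adjusted p = 0.19; -0.35 without the 2 farthest arrays). Within virgin, maternal and pups removed mice this r was -0.05, -0.63 and -0.85. With the hypothalamic markers, r was 0.56 for Crhr1 (permutation p = 0.015, adjusted p = 0.14; rho = 0.48, adjusted p = 0.25; 0.35 without the 2 farthest arrays) and 0.47 for Crh (permutation p = 0.047, adjusted p = 0.24; rho = 0.54, adjusted p = 0.19; 0.52 without the 2 farthest arrays). Within groups, in the same order, r was 0.23, 0.87 and 0.45 for Crhr1 and 0.62, 0.20 and 0.52 for Crh. The olfactory receptor targets had r of 0.35 with that list in the median and 0.68 at the 95th percentile, above both values. Of its 5 measured markers, Pmch (mean 6.19) and Npvf (6.49) lay under the 7.01 that marks the 95th percentile of olfactory receptor signal.

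**Figure D5:**
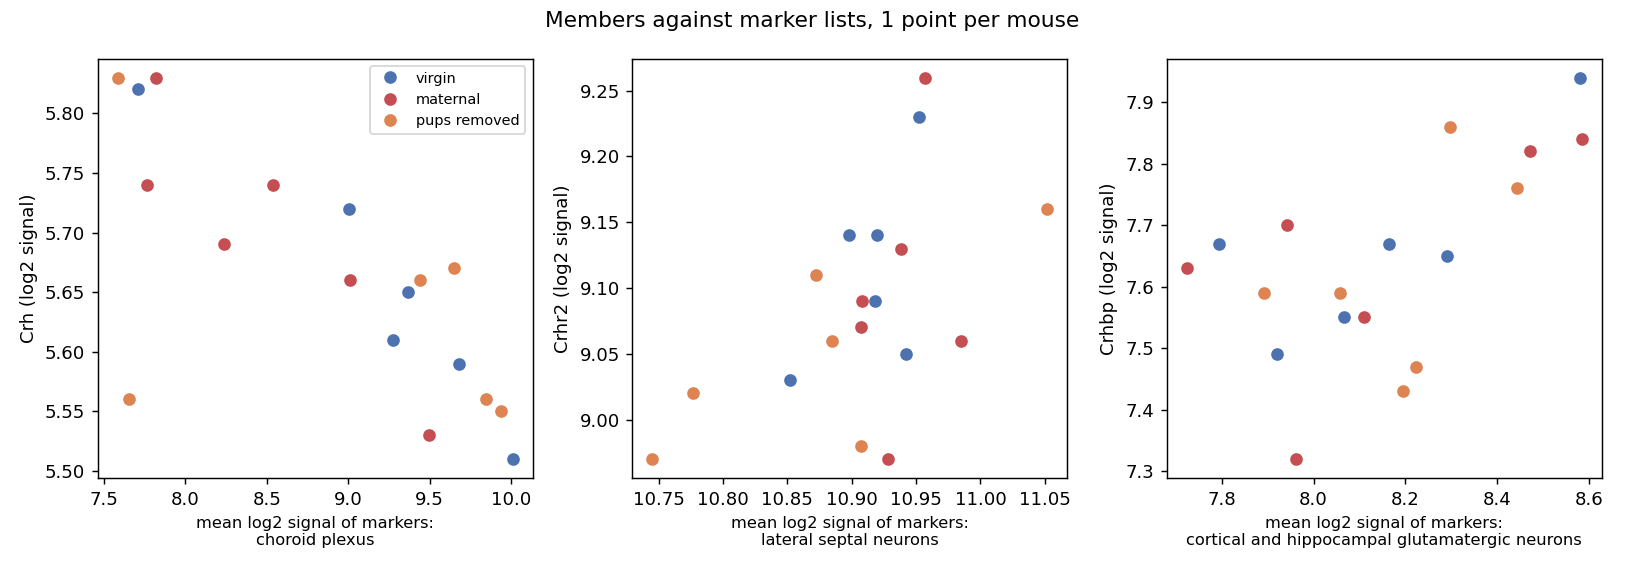
Log2 signal of Crh, Crhr2 and Crhbp (y axes) against the mean log2 signal of choroid plexus, LS and glutamatergic markers (x axes), 1 point per mouse, colored by group. Crh is lower where choroid plexus signal is higher (r = -0.74 over 18 mice), with 1 pups removed mouse low in both.

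Finally, the single-gene targets whose signal followed each gene most closely over the 18 arrays were listed as a description, among those at or above the median signal. For Crhr2 these were Stmn2 (r = 0.80), a neuronal microtubule regulator, C2cd4a (0.75) and G630025P09Rik (0.75), and for Crhr1 they were Slc27a4 (0.75), Irs4 (0.74) and Chl1 (0.73). For Crhbp they were C1ql3 (0.78), a secreted synaptic protein of the C1q family, Zdhhc22 (0.73) and Nos1ap (0.72). Crh was followed by AW551984 (0.86), Myo18b (0.86) and Pde1a (0.83), Ucn by Mroh5 (0.76), Hcn4 (0.75) and Scoc (0.74), and Ucn3 by Ankrd6 (0.72), Kxd1 (0.71) and Pomk (0.68). With the group means removed, r of these 18 targets was between 0.66 and 0.88. The highest of many correlations are large by selection, and they carry no test.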

How the data were processed

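LS tissue of each mouse was taken by bilateral micropunch, and 6 of 8 animals collected per group were put on arrays, all separate animals. The authors deposited log2 values per target, for which they ran the PLIER algorithm in Affymetrix Power Tools 1.12.0 and corrected the background by GC content bins. The study's methods place the normalization in this same PLIER step, and the method by which arrays were scaled to each other is not given in the sources used here. RNA was prepared in sets of 3, with a mouse of each group in a set, and the sources used here do not tie the sets to the replicate numbers. Array medians lay between 7.61 and 7.70 and values between 2.33 and 14.72, with 2 decimals. Arrays have no read depth, and the 6 arrays per group limit the precision.

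The values were used as deposited. The 3 groups were modeled together for all 35557 targets on 18 arrays in limma 3.58.1 (R 4.3.3) with empirical Bayes moderation and Benjamini-Hochberg adjustment over all targets, and targets were called under an adjusted p of 0.25, as in the study. Confidence intervals of 95% are those of limma. Exact two-sided permutation tests of 6 against 6 arrays have a smallest p of 0.0022. Correlations across arrays used 100000 two-sided permutations (numpy 2.4.6), adjusted over the 15 pairs or the 48 relations (scipy 1.17.1).

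Gene names came from the platform annotation, in which 21789 targets name 1 gene. Named are all 6 genes, Ucn2, and the 3 targets most correlated with each gene. Each pathway list is named by its called genes or by the one with the smallest p between maternal and virgin mice. Glp1r, Glp2r and Calcrl are named for an unadjusted limma p under 0.05 between maternal and pups removed mice. From the marker lists, the LS markers and the called striatal markers are named. The genes and lists were chosen with earlier results of these data known. The alternatives tried were a replicate block, quantile normalization, centered array medians, a mean signal of at least 7, single-gene targets only, 2 groups per fit, trend and robust moderation, leaving out each array, and medians in the exact test.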

Additional observations from a re-analysis of the deposited data

Results flagged for a closer look

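Within the groups of 6 arrays, the lowest and highest value of each of the 6 genes and Ucn2 were compared with their neighbors. Of 21 groups, 1 held a value whose gap to the nearest other, divided by the range of the group, passed the critical value of Dixon's test at the 95% level. Maternal replicate 5 read 6.41 for Ucn3, where the next lowest maternal mouse read 6.67, a ratio of 0.667. Chance alone is set to flag a share of 0.05 of such groups. Without this array the difference of Ucn3 between maternal and virgin mice was -0.03 in place of -0.082.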

How the results depend on the processing

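In 120 values of the 18 differences under settings other than leaving out an array, 0 were called in limma (smallest adjusted p 0.581), and 1 changed sign, Crh in maternal against virgin mice at -0.008 after quantile normalization. In the exact permutation test of medians, Ucn in pups removed against virgin mice turned to 0.035 and Crhbp in maternal against virgin mice to 0.005. The smallest p of that test among the 18 differences was 0.199, for Crh in maternal against pups removed mice. In 324 fits without 1 array, 0 were called (smallest adjusted p 0.578) and 26 changed sign. Maternal minus virgin then ran from -0.010 to 0.052 for Ucn, -0.031 to 0.011 for Crhr1, -0.049 to 0.009 for Crhr2 and -0.058 to 0.046 for Crhbp. Maternal minus pups removed ran from -0.106 to 0.012 for Ucn3 and -0.013 to 0.091 for Crhbp. Pups removed minus virgin ran from -0.050 to 0.022 for Crh, -0.045 to 0.018 for Ucn, -0.094 to 0.024 for Ucn3 and -0.094 to 0.011 for Crhbp. The other 8 kept their sign and also moved in size. Maternal minus virgin ran from 0.020 to 0.082 for Crh and -0.108 to -0.030 for Ucn3, maternal minus pups removed from 0.034 to 0.098 for Crh, 0.006 to 0.062 for Ucn, 0.016 to 0.058 for Crhr1 and 0.014 to 0.072 for Crhr2, and pups removed minus virgin from -0.065 to -0.023 for Crhr1 and -0.085 to -0.040 for Crhr2. The cause of these changes was not tested. The filter at a mean of 7 left no value for Crh and Ucn3, and averaging of targets was not run since each gene has 1.

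Counts over all targets moved more. Of 585 called between maternal and virgin LS, the replicate block gave 356 and the filter at 7 gave 1130, and leaving out 1 array gave 10 (without maternal replicate 5) to 1639 (without virgin replicate 6). Of 11 called between maternal and pups removed LS, quantile normalization gave 42, centered medians 7, the filter 204, single-gene targets 309 and trend with robust moderation 30, and leaving out 1 array gave 5 (without maternal replicate 4) to 719 (without pups removed replicate 4). Of 74 called between pups removed and virgin LS, single-gene targets gave 7 and 2 groups per fit 33, and leaving out 1 array gave 18 (without virgin replicate 2) to 266 (without virgin replicate 4). The replicate numbers were not taken as pairs of mice or as the sets in which RNA was prepared, since the sources used here do not say so, 18 pairs of arrays with the same number had correlations of their deviations of -0.25 to 0.10 and 1 of 18 arrays correlated best with its own number. With the number as a block no call of the 6 genes changed, and that of Adcy5 was lost (-0.302, limma adjusted p = 0.25). Zic4, an LS marker not called in the report, was called at 0.137 with the filter at 7 (limma adjusted p = 0.197), with trend and robust moderation (0.24) and at 0.154 without virgin replicate 1 (0.229).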
